A study of Mus musculus with 18 samples.

Results

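The primitive endoderm genes described here are 10 genes taken by name across all 18 arrays of the series: the transcription factors Gata4, Gata6, Sox17, Sox7 and Foxa2, the endocytic adaptor Dab2, the receptor chains Cubn and Amn, and the laminin chains Lama1 and Lamb1. The array platform's annotation gives them 19 probe sets, out of 40508 probe sets and 17903 named genes on the array. Expression was measured on Affymetrix mouse arrays, 1 array per sample, in cells being reprogrammed to induced pluripotent stem cells (iPSC) that had or lacked Tcf3. Tcf3, now called Tcf7l1, is a DNA-binding transcription factor of the Wnt pathway that can bind beta-catenin and acts mostly as a repressor in embryonic stem cells. The factor set OCK is Oct4, c-Myc and Klf4, and OSK is Oct4, Sox2 and Klf4.

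The groups were reprogramming cultures made with OCK from cells with Tcf3 (wild-type, wt) or without it (knockout, ko), with 1 array per genotype on each of days 11, 15, 19, 22 and 26. There were 5 established iPSC clones, 1 made with OSK from wt cells, 2 with OSK from ko cells and 2 with OCK from ko cells. A partially reprogrammed OCK clone of wt genotype gave 3 arrays on day 2 of siRNA treatment, 1 after a control siRNA and 1 after each of 2 siRNAs that target Tcf3, named A and B. There was no OCK wt iPSC clone among these samples, so the OCK and OSK clones were compared between ko clones, and the 3 arrays of the partial clone stand for 1 clone. Whether clones, siRNA arrays or culture days were grown separately is not in the labels, and the p-values therefore reflect the spread among these arrays alone, part of which may be technical.

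Primitive endoderm is the epithelium that forms on the surface of the inner cell mass facing the blastocyst cavity and gives rise to the parietal and visceral endoderm of the yolk sac. Fibroblast growth factor signalling through ERK raises Gata6, and Gata4, Sox17 and Sox7 act after it, while Nanog holds the neighbouring epiblast cells in the pluripotent state. The mature cells take up maternal protein with a receptor of cubilin and amnionless whose internalisation needs Dab2, and the parietal layer lays down a basement membrane rich in the laminin of the alpha 1, beta 1 and gamma 1 chains. None of these genes is restricted to this lineage: Dab2 and Lamb1, among others, are expressed in fibroblasts and macrophages.

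Values are log2 signal on the authors' RMA scale, cut off at a floor of 5.64 (the log2 of 50), and a floored value gives no more than an upper limit. On each array 44.9% to 46.6% of probe sets were at the floor. Of the 19 member probe sets, 16 were above the floor on at least 1 array, 3 on every array and 3 on none (1 each of Gata6, Sox7 and Lamb1), and every one of the 10 genes was above the floor somewhere. Tcf7l1 was lower in the ko than in the wt culture on each of the 5 days. It stood at 10.68 in the OSK wt clone against 9.37 to 9.56 in the ko clones, and the control siRNA array, at 9.93, was above both Tcf3 siRNA arrays, at 8.80 and 8.77. The labels do not place its probes inside or outside the deleted exons. Log2 values of the 2 OCK ko clones had a correlation of 0.988 over all probe sets, those of the 2 OSK ko clones 0.998. As a check of the cell types, Nanog, a core pluripotency factor, was between 12.55 and 13.18 in the established clones, 5.64 to 9.79 in the cultures and 5.78 to 7.29 in the partial clone.

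The regulators of the lineage were at or near the floor in most samples, and Gata6 was the exception. Gata6, which is needed for primitive endoderm to form, was at 10.60 on the control array of the partial clone, 10.20 after siRNA A and 10.08 after siRNA B (probe set 1425464_at). In the cultures its lowest, median and highest values were 6.42, 7.99 and 8.20 for wt and 6.66, 7.23 and 8.04 for ko. In the established clones it was at 6.63 in OSK wt, 7.13 and 7.11 in the OSK ko clones, and 6.33 and the floor in the OCK ko clones. The 3 arrays of the partial clone were therefore above all 15 others, and the established clones lay below the culture median. The second probe set, 1425463_at, ran between 8.95 and 9.38 in the partial clone and reached at most 7.39 on the other arrays. The 2 probe sets had a correlation of 0.97 over the 18 arrays.

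Gata4, Sox17, Sox7 and Foxa2 stayed within 1.00 log2 unit of the floor on every array. Gata4, a zinc finger partner of Gata6, was at 6.23 and the floor in the OCK ko clones, 5.65 in OSK wt and 6.64 and 6.20 in the OSK ko clones (1418863_at). It was at the floor on all 10 culture arrays by that probe set. The second Gata4 probe set was above the floor only in the ko cultures of days 11 and 15, at 5.83 and 5.93, and in the partial clone, at 5.66 to 5.95. The 2 probe sets of Gata4 thus marked different arrays, apart from the 2 Tcf3 siRNA arrays. Sox17, a Sox factor of the F group that is also used by definitive endoderm and endothelium, reached 5.94 at most and was at the floor in every culture. Sox7, of the same group, was above the floor in 2 clones, at 6.32 in OCK ko clone 2 and 5.75 in OSK ko clone 1. Foxa2, a forkhead factor shared by visceral and definitive endoderm and the floor plate, was at the floor in all cultures of days 11 to 19. On day 22 it was at 6.47 in wt and 6.08 in ko, and on day 26 at 5.84 and 6.09. Foxa2 also reached 6.20 on the control siRNA array and 5.98 in OSK ko clone 1.

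**Figure D1:**
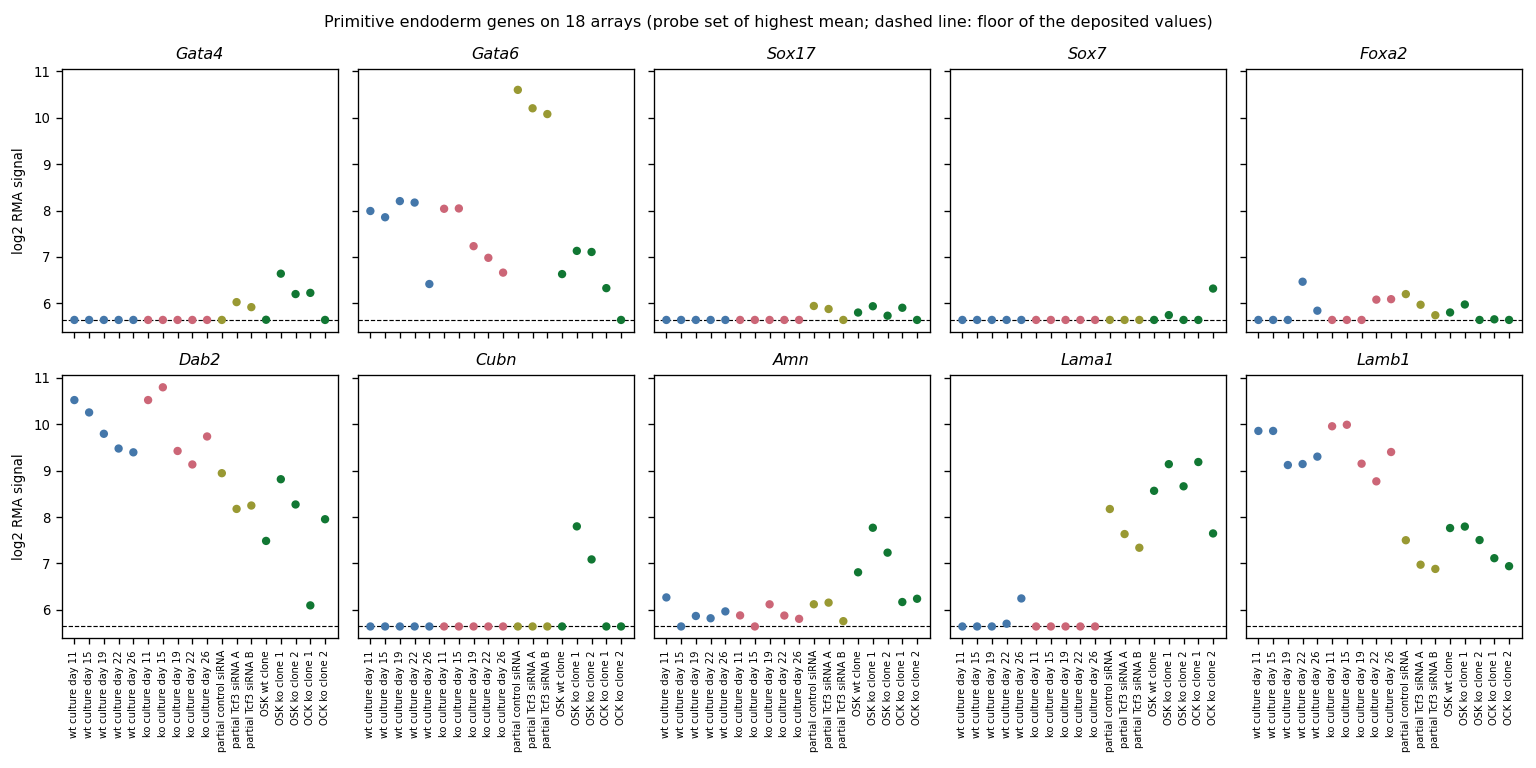
Log2 signal of the member genes on each of the 18 arrays (x axis: arrays by group; y axis: log2 RMA signal, with the floor of 5.64 drawn as a line). Gata6 is highest on the 3 arrays of the partial clone, Dab2 and Lamb1 in the cultures, Lama1 in the clones, and Cubn leaves the floor only in the 2 OSK ko clones.

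The receptor genes Cubn and Amn were highest in the OSK ko clones. Cubn encodes cubilin, the large ligand-binding chain, and stood at 7.80 and 7.09 in OSK ko clones 1 and 2 and at the floor on each of the other 16 arrays. Amn encodes amnionless, the membrane chain that carries cubilin to the cell surface. It was at 7.77 and 7.23 in the OSK ko clones, 6.81 in OSK wt, 6.17 and 6.24 in the OCK ko clones, 5.76 to 6.16 in the partial clone, and at most 6.27 in the cultures. For both genes the 2 OSK ko clones were above every other array. The stretches before the start sites of these 2 genes are shown because the 2 chains of one receptor were both highest in the OSK ko clones. They are the 250 bases upstream of each start from RefSeq (GRCm38.p6), 5′ to 3′ on the strand of the gene.
Cubn, chr2:13491877-13492126, minus strand: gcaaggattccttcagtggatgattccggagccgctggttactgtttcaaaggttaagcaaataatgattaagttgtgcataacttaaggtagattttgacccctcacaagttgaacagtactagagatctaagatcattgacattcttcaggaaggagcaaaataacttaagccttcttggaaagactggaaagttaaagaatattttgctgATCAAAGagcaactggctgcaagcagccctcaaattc
Amn, chr12:111270846-111271095, plus strand: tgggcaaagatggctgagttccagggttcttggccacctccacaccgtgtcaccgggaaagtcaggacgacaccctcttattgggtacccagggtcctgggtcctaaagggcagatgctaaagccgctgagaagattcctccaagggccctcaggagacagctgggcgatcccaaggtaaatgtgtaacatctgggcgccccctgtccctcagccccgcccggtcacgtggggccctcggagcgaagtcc
Capitals mark the Tcf/Lef motif CTTTGAT, here read on the opposite strand as ATCAAAG, at -37 to -31 from the start of Cubn. The other motifs searched, on both strands, were AGATAA for GATA factors, TGTTTAC for Fox factors and ATTGTT for Sox factors, and the Amn stretch held no match to any of the 4. Of 32851 such stretches in the table, 3.21% held the Tcf/Lef motif, 9.99% the GATA motif, 3.17% the Fox motif and 9.42% the Sox motif. The table held 8 stretches of 5 member genes (Cubn, Amn, Dab2, Foxa2 and Lamb1), and besides the one of Cubn only 1 of Foxa2 had a match, to AGATAA at -183 to -178. A match of letters does not show that a factor binds there.

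Dab2, the adaptor that couples cubilin and megalin to clathrin, was high in the cultures and varied most between clones. Its lowest, median and highest values in the cultures were 9.39, 9.79 and 10.52 for wt and 9.13, 9.73 and 10.79 for ko (1420498_a_at). In the clones it was at 7.49 in OSK wt, 8.81 and 8.27 in the OSK ko clones, and 6.10 and 7.95 in the OCK ko clones. The partial clone was at 8.94 on its control array, 8.17 after siRNA A and 8.25 after siRNA B. Every culture was above every clone, and the 2 OCK ko clones lay on opposite sides of the OSK wt clone. The other 3 Dab2 probe sets were also highest in the cultures, with correlations of 0.58 to 0.96 between pairs of the 4. Probe sets 1429693_at and 1430604_a_at were at the floor on all 5 established clones.

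The 2 laminin chains ran in opposite directions across the series. Lama1, the alpha 1 chain, was at 8.56 in OSK wt, 9.14 and 8.66 in the OSK ko clones, 9.18 and 7.65 in the OCK ko clones, and 8.17, 7.63 and 7.34 on the control, siRNA A and siRNA B arrays. In the cultures it was at the floor except on wt days 22 and 26, at 5.70 and 6.25. Lamb1, the beta 1 chain that pairs with several alpha chains, ran from 9.12 to 9.85 in wt and from 8.77 to 9.99 in ko cultures (1424113_at). In the clones it was at 7.76 in OSK wt, 7.79 and 7.50 in OSK ko, 7.11 and 6.94 in OCK ko, and 6.88 to 7.50 in the partial clone. No clone array was at the level of any culture array for either chain, Lama1 above and Lamb1 below. The correlation of Lama1 with Lamb1 over the 18 arrays was -0.84, that of Dab2 with Lamb1 0.87, and that of Dab2 with Lama1 -0.82. These arrays fall into cultures and clones, so the correlations mainly restate that division.

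From day 11 to day 26 of the cultures, Dab2 and Gata6 fell. Dab2 fell by 0.08 ± 0.02 log2 units per day (slope ± SE over 10 arrays, 1420498_a_at; limma adjusted p = 0.0202), which makes a 2.40-fold fall over the 15 days, and its probe set 1423805_at fell by 0.09 ± 0.02 per day (adjusted p = 0.0122). Gata6 fell by 0.09 ± 0.03 per day (1425464_at; adjusted p = 0.0308), or 2.54-fold over the 15 days, while its second probe set had a slope of -0.05 ± 0.03 (adjusted p = 0.156). By day, Gata6 was at 7.99, 7.85, 8.20, 8.17 and 6.42 in wt and at 8.04, 8.04, 7.23, 6.98 and 6.66 in ko, so the wt level was low on the last day alone, and the ko levels were low from day 19 on. Lamb1 had slopes of -0.06 ± 0.02 for both probe sets (limma adjusted p = 0.0508 and 0.065). The slope of Foxa2 was 0.03 ± 0.01 (adjusted p = 0.119) and that of Lama1 0.02 (adjusted p = 0.272). Of 12 member probe sets tested (the other 7 were at the floor in every culture), 3 passed, all lower, against 30.5% of all 24945 probe sets tested, so the members' share was near that of the array. Their median slope was -0.0433 and that of all probe sets -0.000334. Without day 11 none of the 3 passed (adjusted p from 0.133 to 0.178), nor did any of the array, and a line through the 5 day means, which allows for deviations that wt and ko arrays share on a day, left adjusted p from 0.0738 to 0.0869. The call of Gata6 was also lost without day 15 (adjusted p = 0.098), without day 19 (0.0506) and without day 26, where its slope was -0.041 (adjusted p = 0.0892), with limma's plain prior (0.0689) and with its probe sets averaged (0.0675). That of 1420498_a_at for Dab2 was lost without day 15 as well (adjusted p = 0.0607), while Lamb1 passed without day 26, with a slope of -0.098 (1424113_at; adjusted p = 0.0113), and under median centring, quantile normalization, a stricter floor filter and both ways of taking 1 value per gene (adjusted p from 0.0293 to 0.0477). In bulk samples, fewer cells of a type and less RNA per cell cannot be told apart.

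**Figure D2:**
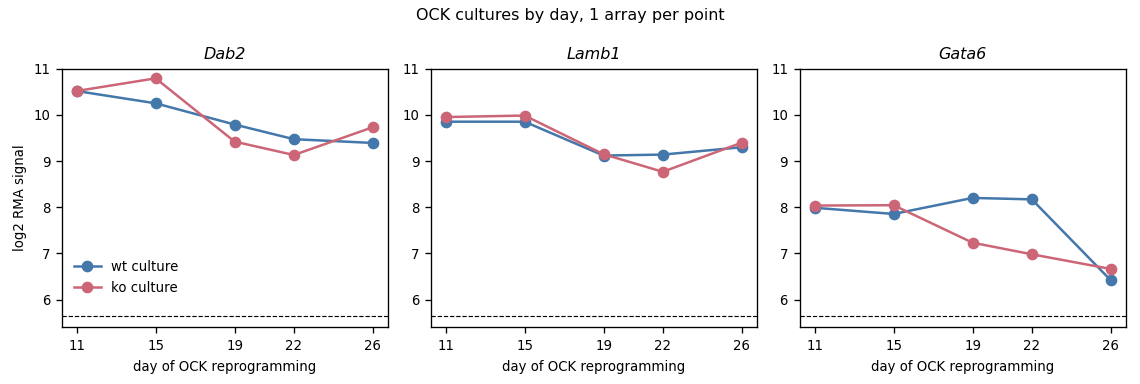
Log2 signal of member genes in the OCK cultures by day (x axis: day of culture; y axis: log2 RMA signal; 1 array per genotype and day, wt and ko drawn apart, no error bars because each point is 1 array). The probe sets are 1420498_a_at for Dab2, 1424113_at for Lamb1 and 1425464_at for Gata6. By these, Dab2 and Lamb1 are highest on days 11 and 15 in both genotypes, and Gata6 is lower in ko than in wt on days 19 and 22.

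Other genes of the lineage did not move one way over the same days. Of 19 further primitive endoderm genes tested (1 probe set per gene; 34.7% of all genes passed), 3 rose and 4 fell, with a median slope of -0.0194. Sall4 rose by 0.26 and Cldn6 by 0.15 log2 units per day, the former a zinc finger factor that the pluripotent state shares and the latter a tight junction protein of early epithelia. Plat, the tissue plasminogen activator, fell by 0.12 and Thbd, thrombomodulin, fell by 0.11 per day, both genes that parietal endoderm expresses. Of the secreted visceral endoderm products on the list, Afp, Apoa1 and Apoa4 were at the floor on all 18 arrays, and Apob and Apoc2 reached 5.82 and 5.68 at most. The carrier protein genes Ttr and Rbp4 were above the floor in all cultures, Ttr between 6.83 and 7.14 and Rbp4 between 5.98 and 7.55, and neither slope passed (adjusted p = 0.771 and 0.347). Of 20 basement membrane genes, 9 fell and 2 rose, the latter the laminin chains Lama3 (0.11 per day) and Lama5 (0.08 per day). Among those that fell were Plod1, by 0.09 per day, and the laminin chain Lama4, by 0.07 per day. Of 12 genes of FGF signalling to ERK 4 rose and none fell, led by the ligand Fgf4 at 0.21 and the ERK-induced factor Etv5 at 0.17 per day.

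Markers of other cell types moved over the same days, and their part in the falls of Dab2 and Gata6 was not tested. Of 14 fibroblast markers 9 fell, and the mean log2 level of the list was 13.00 on day 11 and 12.21 on day 26 in wt, and 13.01 and 12.10 in ko. Of 12 macrophage markers 9 fell, the mean going from 7.45 to 6.35 in wt and from 7.53 to 6.56 in ko. Of 7 heart and mesothelium markers tested, genes of tissues that also use Gata6, 3 fell and none rose. These were Hand2 by 0.12, Msln by 0.11 and Tbx5 by 0.05 log2 units per day. Tnnt2 and Myh6 of that list were at the floor in every culture. Of 14 pluripotency genes tested 10 rose and none fell. Of 8 floor plate and neural genes 5 rose and none fell. Of 5 genes tested from the definitive endoderm list 4 rose and none fell, namely Trh, Cxcr4, Eomes and Sox21. Sox21 was between 8.85 and 10.06 on all 18 arrays. In the established clones Trh was at 6.67 to 9.55 and Eomes at 7.27 to 7.63, so these genes do not mark that tissue alone. Gsc and Foxa3 of the list were at the floor in every culture. Shh, the signal of the floor plate, was above the floor only in the cultures of days 22 and 26, where Foxa2 was, at 8.46 and 7.44 in wt and 7.70 and 7.09 in ko. Among cultures the same held for the receptor gene Cxcr4 of the definitive endoderm list, at 7.04 and 7.48 in wt and 6.33 and 6.29 in ko. The part of these tissues in the Foxa2 values was not tested.

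No member differed between ko and wt cultures matched by day. All 12 member probe sets tested had adjusted p = 1, as against 0% called of all 24945 probe sets (smallest adjusted p 0.104; 903 had an unadjusted p under 0.05), and their median difference, ko minus wt, was -0.0309 against 0.0113 for all probe sets. Gata6 had the 2 differences of largest size, -0.34 ± 0.23 and -0.35 ± 0.23 (log2, SE, 5 pairs of arrays). For 1425464_at the 5 differences were 0.05, 0.19, -0.97, -1.19 and 0.25 from day 11 to day 26. The ko cultures were thus lower by about a log2 unit on days 19 and 22 and not on the other days. The rate of change did not pass either: 0 of 12 member probe sets and 0% of all probe sets differed in slope between ko and wt, where 371 of 24945 had an unadjusted p under 0.05. The median slope difference was -0.0121 for the members and 0.00109 for all.

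Among OSK clones no member passed the threshold, with only 1 wt array to compare. Cubn was higher in the ko clones, ko minus wt, by 1.80 ± 0.27 (limma adjusted p = 0.079), at least 3.48-fold over the floor at which the wt clone lay. Dab2 gave 1.06 ± 0.68 (adjusted p = 0.664), Gata4 0.77 ± 0.28 (0.37), Amn 0.69 ± 0.26 (adjusted p = 0.388) and Gata6 0.49 ± 0.26 (adjusted p = 0.585). Both ko clones were above the wt clone for each of these 5 genes and for Lama1, and below it for 1451241_at of Lamb1. Such groups that did not overlap, 2 arrays against 1, made 9 of 13 member probe sets and 78.5% of all, so their share was no higher than that of the array. Lamb1 gave -0.11 ± 0.16 and -0.43 ± 0.20 for its probe sets. None of 13 member probe sets tested passed, against 0.31% of 22877. Their median difference was 0.336 and that of all probe sets 0.016. Cubn was tested only because of the ko clones, since it was at the floor elsewhere.

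In the same comparison 1 of 18 further primitive endoderm genes passed, against 0.474% of all genes. Srgn, the proteoglycan serglycin of parietal endoderm and blood cells, rose from 8.17 in the wt clone to 10.66 and 10.08 in the ko clones, by 2.19 ± 0.24 (adjusted p = 0.0387). Of 8 partners of the cubilin receptor none passed. Megalin (Lrp2), the large receptor that internalises together with cubilin, was at 8.90 in OSK wt and at 8.78 and 8.46 in OSK ko. Cdx1, the caudal factor kept as a gut marker, was at the floor in wt and at 8.23 and 8.29 in the ko clones. It was higher by at least 2.61 ± 0.26 (limma adjusted p = 0.034). Cdx1 entered this test only through the ko clones. Higher was thus its only possible direction, and its call is a description of those clones. Of 14 fibroblast markers 1 fell, Postn, which could only fall since both ko clones were at the floor. The median difference of the 14 was -0.743. The mean log2 level of that list was 7.68 in the OSK wt clone and 7.01 and 6.88 in the OSK ko clones, and its part in the differences was not tested. Without either OSK ko clone none of the calls on the array was kept, those of Srgn and Cdx1 included (adjusted p from 0.174 to 0.262).

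**Figure D3:**
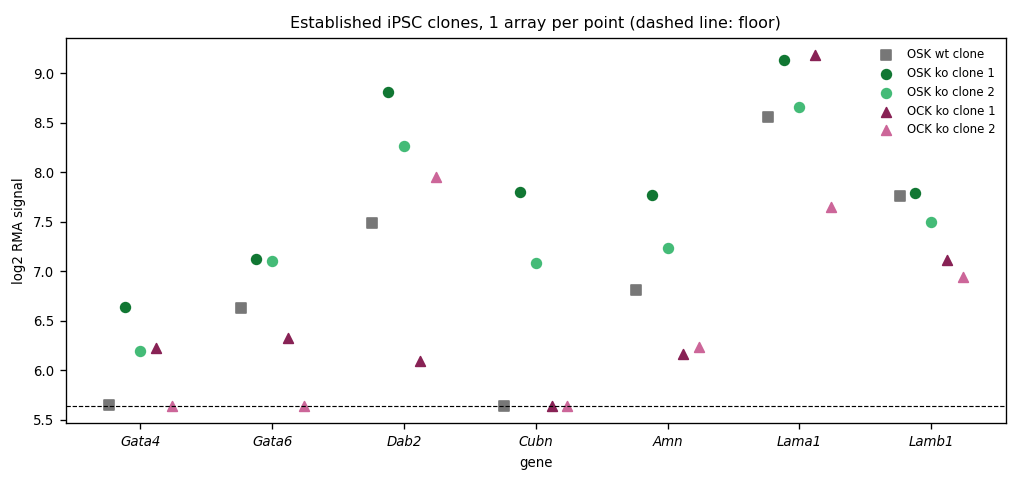
Log2 signal of member genes in the 5 established clones (x axis: gene; y axis: log2 RMA signal; 1 point per clone, coloured by factor set and genotype; the line marks the floor of 5.64). The 2 OSK ko clones lie above both OCK ko clones for Cubn, Amn, Gata6, Dab2 and Lamb1, and the 2 OCK ko clones are far apart for Dab2 and Lama1.

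Between ko clones, 4 member genes were lower in OCK than in OSK clones: Cubn, Amn, Gata6 and Lamb1. Cubn was lower by 1.80 ± 0.22 (log2, SE, 2 clones against 2; limma adjusted p = 0.0106), and since both OCK clones were at the floor the OSK clones were at least 3.48-fold higher. Cubn entered this test only through the OSK ko clones, since it was at the floor elsewhere, so its call is a description of those 2 clones. Amn was lower by 1.30 ± 0.21, or 2.46-fold (adjusted p = 0.0204), and Gata6 by 1.13 ± 0.21 (1425464_at; adjusted p = 0.032), at least 2.19-fold since OCK clone 2 was at the floor. Lamb1 was lower by 0.62 ± 0.13, or 1.54-fold (1424113_at; adjusted p = 0.0424). The second probe sets had the same sign and missed the threshold, at -0.48 ± 0.14 for Gata6 (adjusted p = 0.0992) and -0.39 ± 0.16 for Lamb1 (adjusted p = 0.197). The 2 groups of clones did not overlap in 7 of 13 member probe sets, these 6 and 1420498_a_at of Dab2, against 53.3% of all probe sets, which is the background. The 4 called, Cubn among them, were 30.8% of 13 member probe sets tested, against 7.57% of 23398 probe sets of the array. Lower was the only direction open to Cubn, so it adds to the members' share only as a description. The median difference was -0.485 for the members and -0.012 for all.

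The remaining members missed the threshold, and the OCK clones differed from each other. Dab2 gave -1.52 ± 0.55 (adjusted p = 0.157), with both OCK clones below both OSK clones and OCK clone 1, at 6.10, far below the other 3 ko clones. Lama1 gave -0.48 ± 0.47 (adjusted p = 0.596). There OCK clone 1, at 9.18, was level with the OSK clones and OCK clone 2, at 7.65, was below them. Gata4 gave -0.49 ± 0.23 (adjusted p = 0.249) and Sox7 0.29 ± 0.21. Without OCK clone 1, Lama1 gave -1.25, Gata4 -0.78 and Sox7 0.62. Without OCK clone 2, Lama1 gave 0.28 and Sox7 -0.05, and Dab2 gave -2.44 (1420498_a_at) and -1.20 (1423805_at). Each of these fits leaves 1 OCK clone, so only the sizes are given. Without OSK clone 1 or without OSK clone 2 none passed (adjusted p from 0.0573 to 0.271), and with the 5 established clones fitted alone, where less is known of the spread, none passed either (adjusted p from 0.0538 to 0.107). Clone number as a block left the same 4 calls.

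Some partners of the members also differed. Megalin (Lrp2) was lower in OCK clones, at 6.42 and 7.13 against 8.78 and 8.46, by 1.85 ± 0.24 (adjusted p = 0.0115), and the chloride transporter Clcn5 of the endocytic pathway was higher by 1.08 ± 0.09 (adjusted p = 0.00581). These were 2 of 8 partner genes tested, against 8.83% of all genes. Of 18 further primitive endoderm genes 3 were lower and none higher, with a median of -0.0615. Srgn was lower by 3.05 ± 0.20 (limma adjusted p = 0.00468), at 7.21 and 7.43 against 10.66 and 10.08. The forkhead factor Foxq1 was lower by 0.61 ± 0.13 (adjusted p = 0.0426) and the parathyroid hormone receptor Pth1r by at least 0.74 ± 0.12 (adjusted p = 0.0211). Both OCK clones were at the floor for Pth1r. Lower was thus its only possible direction, and its call is a description of the OSK ko clones. Of 19 basement membrane genes 3 were lower and none higher: the laminin chain Lama5 by 0.92, the collagen chaperone Serpinh1 by 0.84 and the collagen IV chain Col4a1 by 0.80. The FGF list had 1 of 13 lower, the ERK feedback inhibitor Spry2 by 1.00 ± 0.22 (adjusted p = 0.0497). None of these calls except Srgn was kept without either OSK ko clone.

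Among markers of other cells, 3 of 15 pluripotency genes were higher in the OCK clones (Prdm14 by 1.64, Tbx3 by 1.21 and Fbxo15 by 0.99). None of 12 fibroblast markers tested passed, at mean log2 levels of 6.46 and 7.72 in OCK against 7.01 and 6.88 in OSK ko clones. Cdx1 was lower in the OCK clones by 1.03 ± 0.21 (adjusted p = 0.0405), and 1 of 5 heart and mesothelium markers, Msln, was higher by 1.08. None of these 5 calls was kept without OSK ko clone 1 or without OSK ko clone 2 (adjusted p from 0.0857 to 0.237). The part of these genes in the member differences was not tested.

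**Figure D4:**
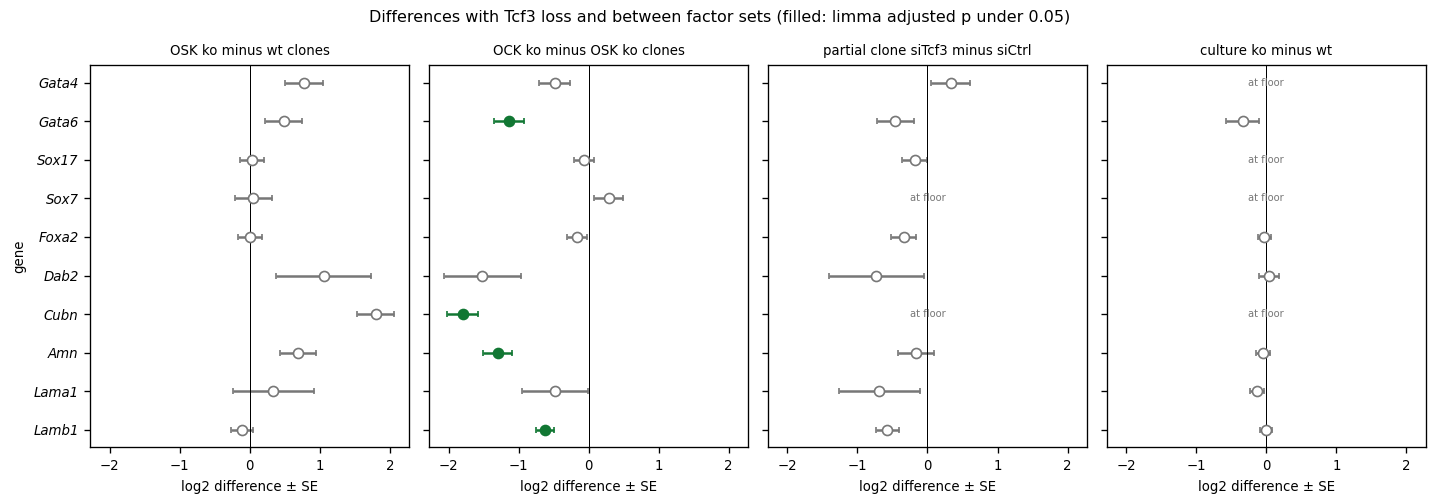
Differences of the member genes, each by its probe set of highest mean, in OSK ko minus wt clones, OCK minus OSK ko clones, siTcf3 minus siCtrl and ko minus wt cultures (x axis: log2 difference with its SE as the bar; y axis: gene; filled points passed the limma test at an adjusted p of 0.05, and genes at the floor on all arrays compared have no point). In OCK minus OSK ko clones the filled points are Cubn, Amn, Gata6 and Lamb1, all to the left of 0.

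In the partial clone, Tcf3 siRNA left no member past the threshold. Against the single control array, siTcf3 minus siCtrl, Dab2 gave -0.73 ± 0.68 (adjusted p = 0.732), and its other probe sets -0.94 ± 0.44 for 1423805_at (0.477) and -0.76 ± 0.15 for 1429693_at (adjusted p = 0.155). Lama1 gave -0.69 ± 0.58 (adjusted p = 0.699), Lamb1 -0.57 ± 0.16 (adjusted p = 0.264) and Gata6 -0.46 ± 0.26 (adjusted p = 0.56). Gata4 gave 0.33 ± 0.28 and 0.27 ± 0.15. Both siRNA arrays were below the control array for Dab2, Lama1, Lamb1, Gata6, Foxa2 and Sox17 and above it for Gata4. Groups that did not overlap in this way, 2 arrays against 1, made 13 of 14 member probe sets (all but that of Amn) and 73.7% of all probe sets. None of 14 member probe sets passed, against 0.0639% of 23468 (15 probe sets; 2757 had an unadjusted p under 0.05), with a median of -0.359 for the members and 0.00521 for all. None of 17 further primitive endoderm genes passed, the 2 differences of largest size being -0.84 ± 0.58 for Thbd and -0.78 ± 0.15 for Bmp2. None of 19 basement membrane genes passed, with a median of -0.242. None of 14 fibroblast markers passed either, but all except 1 had a negative difference, with a median of -0.478, and the mean log2 level of the list was 9.37 on the control array and 8.86 and 8.92 after siRNA A and B. Their part in the member differences was not tested.

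Across states, the established clones differed from the cultures in 7 of the 10 member genes, 4 higher and 3 lower. The fit took no account of factor set, genotype or day, and counted the 10 culture arrays as replicates. All cultures but not all clones were made with OCK, so state is mixed with factor set and genotype here. Lama1 was higher by 2.93 ± 0.20 (5 clones against 10 culture arrays; adjusted p = 3.64e-10), at least 7.62-fold since 8 of the 10 culture arrays were at the floor. Also higher were Amn by 0.95 ± 0.20 (adjusted p = 0.000367), Cubn by 0.72 ± 0.27 (adjusted p = 0.0249) and Gata4 by 0.43 ± 0.12 (1418863_at; adjusted p = 0.00563). By these probe sets Cubn and Gata4 were at the floor on all 10 culture arrays and entered this test only through the clones. Higher was thus their only possible direction, and their calls are a description of those clones. Lamb1 was lower by 2.03 ± 0.21, or 4.08-fold (1424113_at; adjusted p = 9.07e-08), Dab2 by 2.18 ± 0.36, or 4.53-fold (1420498_a_at; adjusted p = 3.09e-05), and Gata6 by 0.99 ± 0.31 (1425464_at; adjusted p = 0.00987). Further probe sets that passed were lower by 2.80 ± 0.29 (1423805_at; adjusted p = 1.39e-07) and 1.29 ± 0.14 (1429693_at; adjusted p = 2.84e-07) for Dab2 and by 1.66 ± 0.21 for Lamb1 (1451241_at; adjusted p = 1.73e-06). The second Gata4 probe set had the opposite sign to the first, at -0.05 ± 0.11 (1418864_at; adjusted p = 0.75), and the second Gata6 probe set missed the threshold at -0.51 ± 0.23 (1425463_at; adjusted p = 0.0683). By probe set 10 of 16 passed, Cubn and Gata4 included, a share of 62.5% against 62.4% of all 26463 probe sets tested, which is the background. The member median was -0.0991 and that of all 0.0436. The call of Cubn rested on the 2 OSK ko clones, since without either of them its adjusted p was 0.107 or 0.0998. Against the cultures of days 22 and 26 alone Gata6 gave -0.49 (adjusted p = 0.257). There Cubn and Gata4 did not pass, and Foxa2 did, at -0.38 (adjusted p = 0.0245) in place of -0.09 (adjusted p = 0.596) against all cultures.

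The lists around the members divided between the same states (67.9% of all genes passed). Of 21 further primitive endoderm genes 3 were higher in the clones and 10 lower, with a median of -0.207: Pdgfra, the growth factor receptor of primitive endoderm and mesenchyme, was lower by 4.92, the activin antagonist Fst by 4.46 and Plat by 4.11, and Sall4 was higher by 4.56. Of 4 anterior visceral endoderm genes tested 3 were higher and none lower, with a median of 2.39. These were Hhex by 2.94, Otx2 by 2.42 and Lefty1 by 2.36. Of 20 basement membrane genes 12 were lower and 1 higher, with a median of -0.89, led by Lama4 (lower by 5.16) and the collagen IV chain Col4a2 (lower by 2.95). Among partners of the receptor Lrp2 was higher by at least 2.29 and its relative Lrp1 lower by 3.51. Lrp2 was at the floor in every culture, so higher was its only possible direction and its call is a description of the clones. All 14 fibroblast markers were lower (median -4.90), their mean log2 level being 6.46 to 7.72 in the clones and 11.55 to 13.01 in the cultures. Of 12 macrophage markers 3 were lower, and 13 of 15 pluripotency genes were higher and 1, Klf4, lower. The part of these cells in the falls of Dab2, Lamb1 and Gata6 was not tested.

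Against the partial clone, Gata6 had the largest difference of the 10 genes. It was lower in the established clones by 3.72 ± 0.42, at least 13.2-fold (1425464_at; adjusted p = 6.57e-07), and by 3.26 ± 0.31, at least 9.57-fold (1425463_at; adjusted p = 9.8e-08). These are lower limits because 1 of the 5 established clones was at the floor for the former and 2 for the latter. Lama1 was higher by 0.92 ± 0.26 (adjusted p = 0.00706) and Amn by 0.83 ± 0.27 (adjusted p = 0.0146). Dab2 gave -0.91 ± 0.39 (1423805_at; adjusted p = 0.0671). By probe set 4 of 16 passed, 25%, against 47% of all 25428, with medians of -0.113 and 0.0133. The 3 arrays are 1 clone, so a difference between clones and one between states cannot be told apart here. They pool the control with the Tcf3 siRNA arrays, and this fit also took no account of factor set or genotype.

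Other genes of the lineage lay on both sides. Of 21 further primitive endoderm genes 4 were higher and 5 lower in the established clones (50.8% of all genes passed). Srgn was lower by 3.35 and Pth1r by 1.50, and Sall4 was higher by 4.69 and Cldn6 by 2.08. Sox7 and Cubn were at the floor on all 3 arrays of the partial clone. So were Gata5, Foxa1, Stra6, Afp, Apoa1, Apoa4, Apoc2 and Rbp4 of this list. Of these Rbp4 passed, higher in the established clones by at least 0.87. Higher was the only direction open to Rbp4, so its call is a description of those clones. All 3 anterior visceral endoderm genes tested were higher in the established clones, with a median of 2.78. Cer1, Dkk1 and Lhx1 of that list were at the floor in both and were not tested. Of 19 basement membrane genes 4 were higher and 5 lower in the established clones, the nidogens Nid2 and Nid1 higher by 3.42 and 1.51 and the chains Lama4 and Lama3 lower by 4.53 and 3.23. Of 14 fibroblast markers 11 were lower, at mean log2 levels of 6.46 to 7.72 in the established clones against 8.86 to 9.37 in the partial clone. Of 6 heart and mesothelium markers tested, genes of tissues that also use Gata6, 3 were lower, led by Isl1 by 3.84 and Msln by 2.72. The mean log2 levels of the list were 5.82 to 6.04 against 6.84 to 7.10. Hand2, Tnnt2 and Myh6 of that list were at the floor in both. Of 6 endothelial markers 2 were lower, Esam by 4.15 and Tek by 2.12, and Pecam1 was higher by 1.31, while Cdh5, Tie1, Emcn and Sox18 were at the floor in both. The part of these lists in the Gata6 difference was not tested.

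The genes whose profiles over the 18 arrays were most like those of the members were named by Pearson correlation among 20377 probe sets of single genes above the floor on at least 6 arrays, as a description of arrays that fall into few states. For Gata6 they were Amigo2 (0.956), Snx15 (0.952) and Elfn1 (0.947). For Dab2 they were Sufu (0.975), Acp2 (0.946) and Capg (0.946), and for Lamb1 Gpx3 (0.984), Tspan5 (0.983) and Mxra7 (0.982). For Lama1 they were Uri1 (0.975), Rufy3 (0.974) and Med9 (0.972), and for Amn 4931428F04Rik (0.941), Pgbd1 (0.930) and Mapk4 (0.921). Gata4, Sox17 and Foxa2 were above the floor on 6, 6 and 10 arrays, and their first-ranked genes were 4930558J18Rik (0.934), Fgd6 (0.901) and Lrrfip1 (0.826). Sox7 and Cubn, each above the floor on 2 arrays, were not ranked. None of the members was among the top 3 of another. Between members, Gata4 and Gata6 had a correlation of -0.03, Gata4 and Amn of 0.74, and Sox17 and Lama1 of 0.82.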

How the data were processed

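The authors deposited 1 value table of 18 arrays with log2 values made with RMA, per the submitters' processing notes; no version is named there. The lowest of the deposited log2 values was 5.64 (log2 of 50) on every array, a floor that shows in the values and that the labels do not mention. Gene names came from the platform annotation: 31076 probe sets had 1 symbol, 636 several and 8796 none listed. The member genes, gene lists and tests were chosen with earlier results of these data known.

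Probe sets were tested with limma 3.58.1 (R 4.3.3), using Benjamini-Hochberg adjustment over all probe sets tested and a threshold of 0.05. The prior variance came from probe sets with no floored array in the fit, other probe sets were given no less than that variance, and probe sets at the floor on all arrays compared were not tested. Cultures were fitted over 10 arrays, with a line in day per genotype or with day as a block. Clones and siRNA arrays were fitted together over 8 arrays, where a group with 1 array was assumed to vary like the others. The comparison of states used all 18 arrays. The fitting code was first checked on simulated arrays with 200 changed probe sets. Lists were counted with 1 probe set per gene, the one with the highest mean. From each list up to 4 genes that passed are named, by size of difference, otherwise up to 2; list genes at the floor, secreted visceral endoderm products, markers of named receptors and factors (Lrp2, Klf4, Cdx1) and single values of Tcf7l1 and Nanog are named beside these, chosen after their values were seen. Precision is limited by the few arrays per group. Clone numbers were not shown to pair the clones.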

Additional observations from a re-analysis of the deposited data

Results flagged for a closer look

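For 3 member genes the OSK ko clones lay above the wt clone and the Tcf3 siRNA arrays below the control array of the partial clone, on every array of both. These were 5 of 11 member probe sets tested in both settings, while 28.8% of all 21268 such probe sets had opposite sides on every array. The difference between the 2 settings was not tested, and neither effect passed its own test. For Gata6, ko minus wt was 0.49 in the OSK clones (1425464_at) and siTcf3 minus siCtrl was -0.46 in the partial clone, and for 1425463_at the values were 0.28 and -0.38. For Dab2 they were 1.06 and -0.73 (1420498_a_at) and 0.42 and -0.94 (1423805_at). For Lama1 they were 0.34 and -0.69. Each direction rests on 2 arrays set against 1 control array.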

How the results depend on the processing

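Counts of member genes that passed were recomputed under other processing, and the numbers below replace the 2 of the change per day, the 4 of OCK minus OSK ko clones, the 0 of the siRNA, and the 7 and 3 of the established clones against cultures and against the partial clone. Where no cause is named, the cause was not tested. With limma's plain prior over all probe sets, where floored probe sets lower the prior variance, they were 1 (Dab2), 0 and 2 (Gata4 higher and Dab2 lower), the other 2 counts staying within 1.5 times. Testing no probe set with a floored array, which removes most members from the test, gave 2 for OCK minus OSK ko, 2 against cultures and 0 against the partial clone. The line through the 5 day means gave 0, the 5 established clones alone gave 0 for OCK minus OSK ko, and cultures of days 22 and 26 alone gave 5 against the partial clone. Leaving out arrays gave 0 (without day 11) to 2 for the change per day. Leaving out a clone in OCK minus OSK ko left 1 array in a group, and the calls lost without an OSK ko clone are given with that comparison above. The paired fit, with clone number as a replicate block, gave 4, although the clone numbers did not pair the clones (correlation of their deviations -0.0994 over 19893 probe sets). Median centring and quantile normalization changed none of these counts by more than 1.5 times.

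Signs turned for few values, none of them called on both sides. Leaving out clones in OCK minus OSK ko, Lama1 ran from -1.25 (without OCK ko clone 1) to 0.28 (without OCK ko clone 2), Sox7 from -0.052 to 0.62 and Foxa2 from -0.33 to 0.0066. With probe sets averaged within genes, Lamb1 was -0.066 in the established clones against the partial clone, and against cultures Sos1 was 0.21 and Klf4 0.019, with Klf4 at 1.05 against the partial clone. A difference smaller than its SE that passed no test was given no direction.

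Over the whole array, OSK ko minus wt gave 71 calls, 280 with the plain prior, 13 without floored probe sets, and 0 without either ko clone or with the 5 clones alone. OCK minus OSK ko gave 1771, 812 with the plain prior, 10 without OSK ko clone 1, 4 without OSK ko clone 2 and 400 with the 5 clones alone. The siRNA gave 15, and 621 with the plain prior. The change per day gave 7616, 0 without day 11 and 94 through the day means.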
